A study of Homo sapiens with 7 samples.

Results

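The genes described here write, copy, read or remove methylation of cytosine in DNA, and the data are the intervals of chromatin marks that lie over them in HCT116 cells, a human colorectal carcinoma line. They are DNMT1, DNMT3A, DNMT3B, DNMT3L, UHRF1, TET1, TET2 and TET3, which are 8 of the 20162 protein-coding genes of GENCODE on hg19. Each was taken as its annotated gene body with 10 kb added on either side, and every interval of 6 deposited peak lists that touched such a window by at least 1 bp was kept. The windows held 127 of the 240889 deposited intervals. Chromatin came from PIXUL, a sonicator that shears chromatin in all wells of a 96-well plate, and immunoprecipitation and library preparation used a kit for low cell numbers. A library represents 1 well, in which 200000 cells in 100 μl were sheared for 6 min. There was 1 library per mark, for H3K4me3, H3K9Ac, H3K4me1, H3K36me3, H3K27me3 and CTCF, and a labelled H3K27Ac library was not analysed here. No library has a replicate, so the values below carry no replicate error and no test was made.

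Methylation at CpG dinucleotides is set up by the de novo methyltransferases DNMT3A and DNMT3B. DNMT3L, a relative without catalytic activity, binds and stimulates them and is best known from germ cells. After replication UHRF1 recognises hemimethylated CpG and brings in DNMT1, the maintenance enzyme. The TET proteins oxidise 5-methylcytosine, which opens a route back to unmodified cytosine. These enzymes are tied to the marks measured here, since DNMT3A and DNMT3B carry a domain that binds methylated H3K36 and another that binds H3 whose K4 is unmethylated. H3K4me3 and H3K9Ac are known at active promoters, H3K4me1 flanks promoters and marks enhancers, H3K36me3 covers transcribed gene bodies, and H3K27me3 is deposited by Polycomb complexes. CTCF is a DNA-binding protein of chromatin loop anchors.

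The value of an interval is its fold enrichment, the linear ratio of the signal over the background of the peak caller, as the authors deposited it. Folds were compared only within the list of 1 mark, since the antibodies differ. An interval is said to be past the limits when it met those of the Methods, which are a q-value under 1e-03 and a fold over 2 for H3K4me1 and H3K27me3, and a q-value under 1e-10 and a fold over 5 for the other marks. Of the 127 intervals, 57 were past the limits. These were 11 of 14 for H3K4me3, 13 of 24 for H3K9Ac and 23 of 32 for H3K4me1. For CTCF they were 10 of 19, for H3K36me3 0 of 34 and for H3K27me3 0 of 4. In the whole lists, 12749 of 16112 H3K4me3, 12720 of 34164 H3K9Ac and 32292 of 50521 H3K4me1 intervals were past the limits. So were 24536 of 44812 CTCF, 90 of 40010 H3K36me3 and 1552 of 55270 H3K27me3 intervals. DNMT3A and TET1 held the most intervals, 25 and 23, and DNMT3L the fewest, 10. As a check of the cell type, 6 of 8 epithelial and colon markers had H3K4me3 past the limits at their start site, against 59.1% of all coding starts. VIL1 and CEACAM5 lacked it, and H3K27me3 past the limits covered 100% of the CEACAM5 body. Of the markers of blood, endothelium, liver, muscle or glia, 0 of 7 had H3K4me3 at the start. PECAM1, a further marker of this kind, was not found among the coding genes used.

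**Figure D1:**
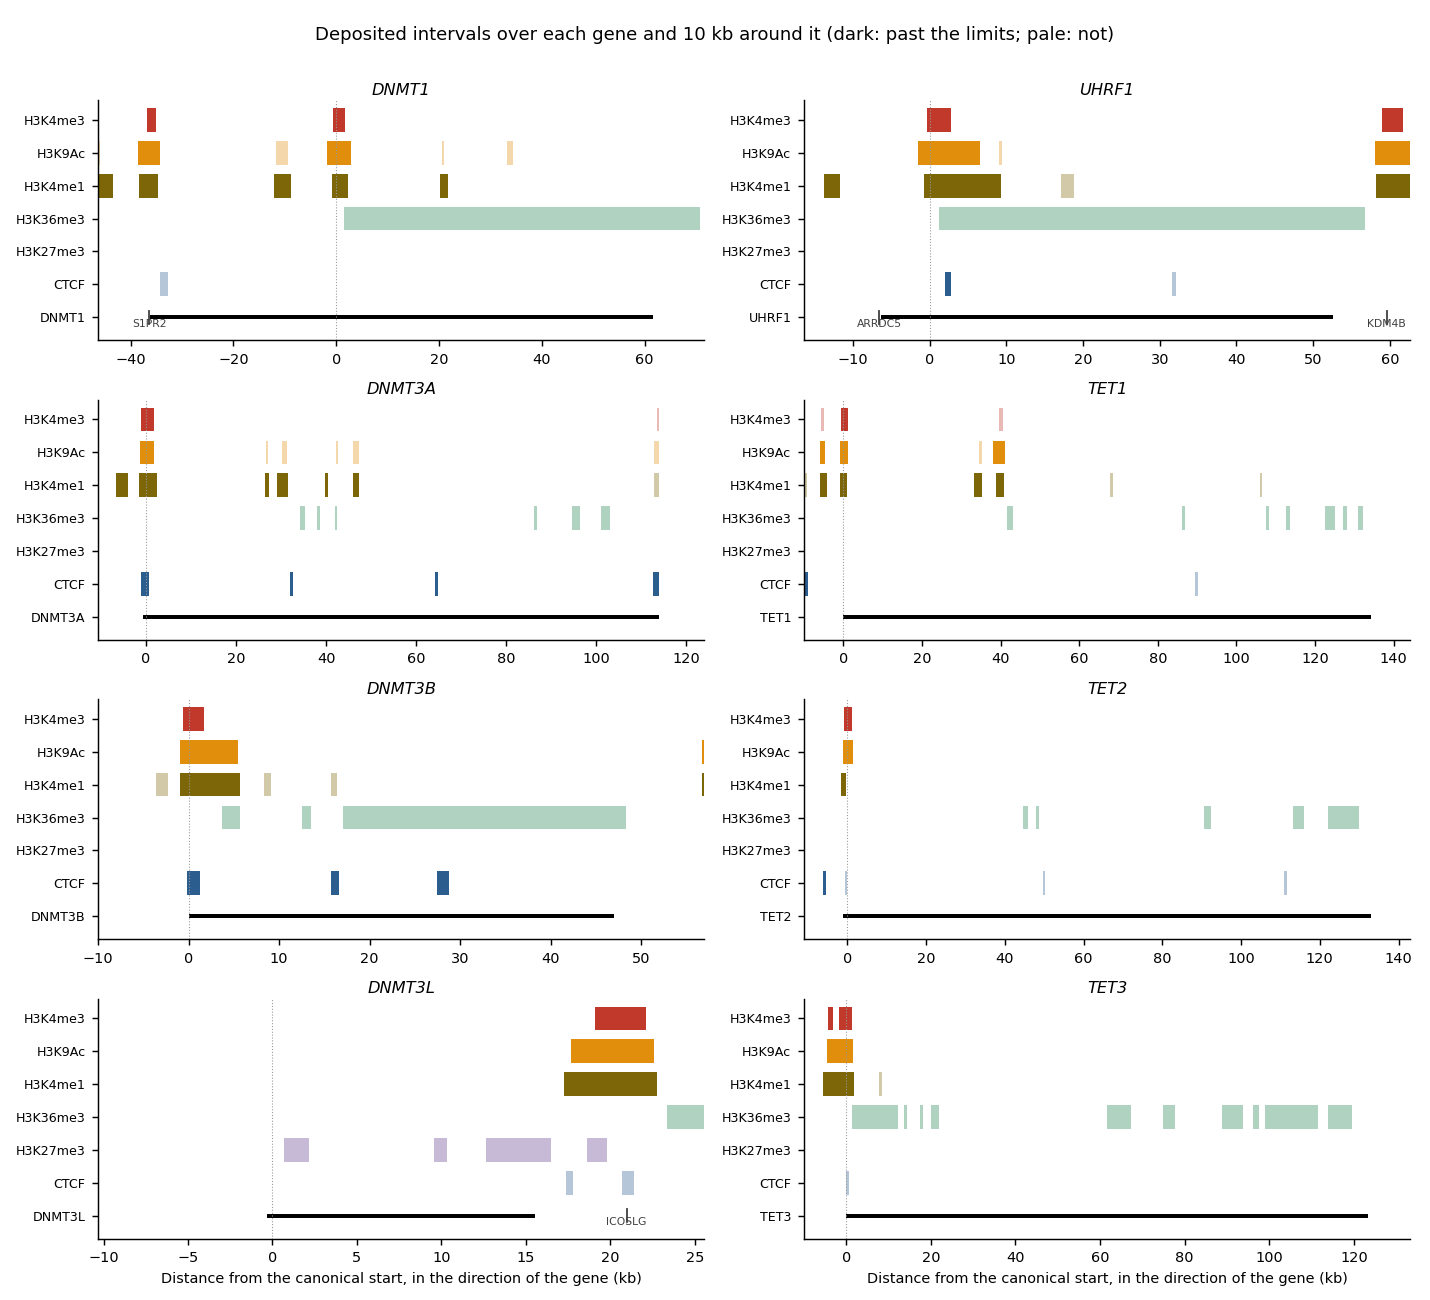
Intervals of the 6 lists over each gene and 10 kb on either side, with the distance from the canonical start in kb on the horizontal axis and 1 row per mark. Dark bars are past the limits, pale bars are not (bars too narrow to see are drawn wider), the black line is the annotated gene, and ticks name other protein-coding genes that start there. Long pale H3K36me3 bars cover DNMT1, UHRF1 and the 3′ part of DNMT3B, and DNMT3L is the gene with H3K27me3 bars.

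At the start sites, 7 of the 8 genes had H3K4me3, H3K9Ac and H3K4me1 together, all past the limits and within 1 kb of the start of the canonical transcript. DNMT3L had none of them. Over all protein-coding genes, H3K4me3 was called at 59.1% of starts, H3K9Ac at 58.5%, H3K4me1 at 49.1% and all 3 at 43.1%. CTCF was called at 2 of the 8 starts, DNMT3A and DNMT3B, against 13.6% of all starts.

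DNMT1, the maintenance methyltransferase (chromosome 19, 10244018 to 10341962, minus strand), had H3K4me3 from 654 bp upstream to 1678 bp downstream of its start, with a fold of 23. This was the lowest of the 7 genes and stood at the 52.1 percentile of the 11924 coding starts with this mark. Its H3K9Ac interval reached a fold of 13.9 and its H3K4me1 interval 4.25, at the 58.0 and 31.3 percentiles. For each of these marks DNMT1 lay within the quartiles of all marked starts.

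UHRF1, which carries DNMT1 to replicated DNA (chromosome 19, 4903092 to 4962165, plus strand), had the widest domains of the group. H3K4me3 spanned 3076 bp with a fold of 27.6, H3K9Ac spanned 8078 bp and H3K4me1 10036 bp. The H3K9Ac and H3K4me1 widths stood at the 94.0 and 96.2 percentiles of marked starts. In fold the 2 marks were apart, since H3K4me1 (7.0) was at the 91.8 percentile and H3K9Ac (11.8) at the 37.3. Both domains extended mainly into the gene, with H3K9Ac ending 3777 bp beyond the end of H3K4me3.

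DNMT3A (chromosome 2, 25450724 to 25565459, minus strand), a de novo methyltransferase, had the highest H3K4me3 fold of the group, 33.4, at the 90.7 percentile. H3K9Ac at this start had a fold of 14.6 and H3K4me1 of 6.54, and CTCF covered the start itself with a fold of 10.7. DNMT3B, the other de novo enzyme (chromosome 20, 31350191 to 31397165, plus strand), had H3K4me3 of fold 29.6 over 2281 bp. Its H3K9Ac interval was 6385 bp wide with a fold of 13.5 and reached 3763 bp further into the gene than H3K4me3, which resembled UHRF1. At DNMT3A both marks ended within 57 bp of each other. CTCF at the DNMT3B start had a fold of 7.78, at the 13.1 percentile of the 2733 starts with CTCF.

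The dioxygenases differed among themselves in how H3K9Ac and H3K4me1 were balanced. TET1 (chromosome 10, 70320094 to 70454244, plus strand) had an H3K4me3 fold of 32.3 and the highest H3K9Ac fold of the group, 20.8, at the 95.2 percentile, in an interval of only 2012 bp. Its H3K4me1 fold of 3.83 was the lowest of the group, at the 7.33 percentile. TET2 (chromosome 4, 106067032 to 106200973, plus strand) had H3K4me3 of fold 26.5 and H3K9Ac of fold 18, and its H3K4me1 interval of fold 4.69 lay from 1679 to 300 bp upstream without reaching the start. TET3 (chromosome 2, 74212037 to 74335303, plus strand) had H3K4me3 of fold 30.1, H3K9Ac of fold 15.4 and H3K4me1 of fold 5.90. A noncoding RNA gene on the same strand, ENSG00000235499, starts at 222 bp within these intervals, so the marks of both genes cannot be told apart. The H3K9Ac and H3K4me1 domains of TET3, 6132 and 7361 bp wide, ran upstream over the start of the antisense gene DGUOK-AS1 at 3469 bp. A second H3K4me3 interval there had a fold of 9.67. Deposited CTCF intervals at the starts of TET2 and TET3 had folds of 3.47 and 3.29 and were not past the limits.

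Over the 7 marked starts the median fold was 29.6 for H3K4me3, 14.6 for H3K9Ac and 5.89 for H3K4me1. Over all marked coding starts the medians were 22.5, 13.1 and 4.67. For H3K4me3, 4 of the 7 genes lay above the 75th percentile of all marked starts, which was 27.8, and none lay below the median. Median widths were 2333, 4701 and 3825 bp in the group and 2061, 3112 and 2381.5 bp over all marked starts. With 1 library per mark these are descriptions of the lists. The H3K4me1 folds rested on weaker calls than the others, since −log10 q at the start was 4.68 for DNMT1, 3.01 for TET1 and 4.99 for TET2, against at least 78.4 for H3K4me3.

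**Figure D2:**
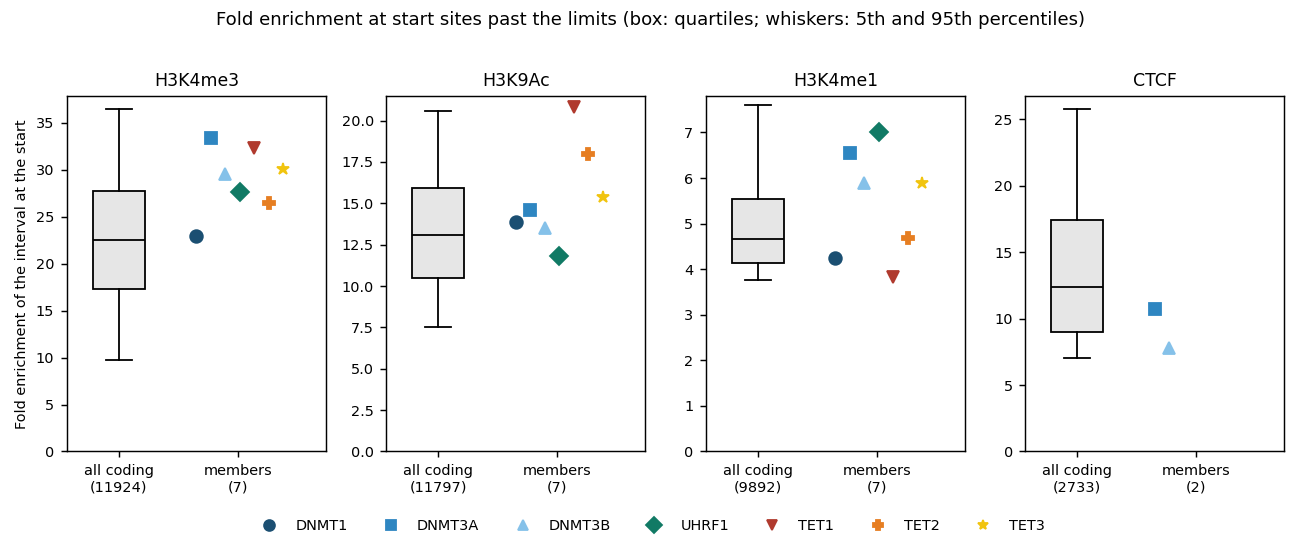
Fold enrichment (linear, vertical axis) of the interval past the limits at the start, 1 panel per mark. Boxes give the quartiles and median over all coding starts with that mark (number under the box), whiskers the 5th and 95th percentiles, and each symbol is 1 gene, with DNMT3L absent. TET1 has the highest H3K9Ac symbol (20.8) and the lowest H3K4me1 symbol (3.83), and UHRF1 the lowest H3K9Ac (11.8) and the highest H3K4me1 (7.0).

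**Figure D3:**
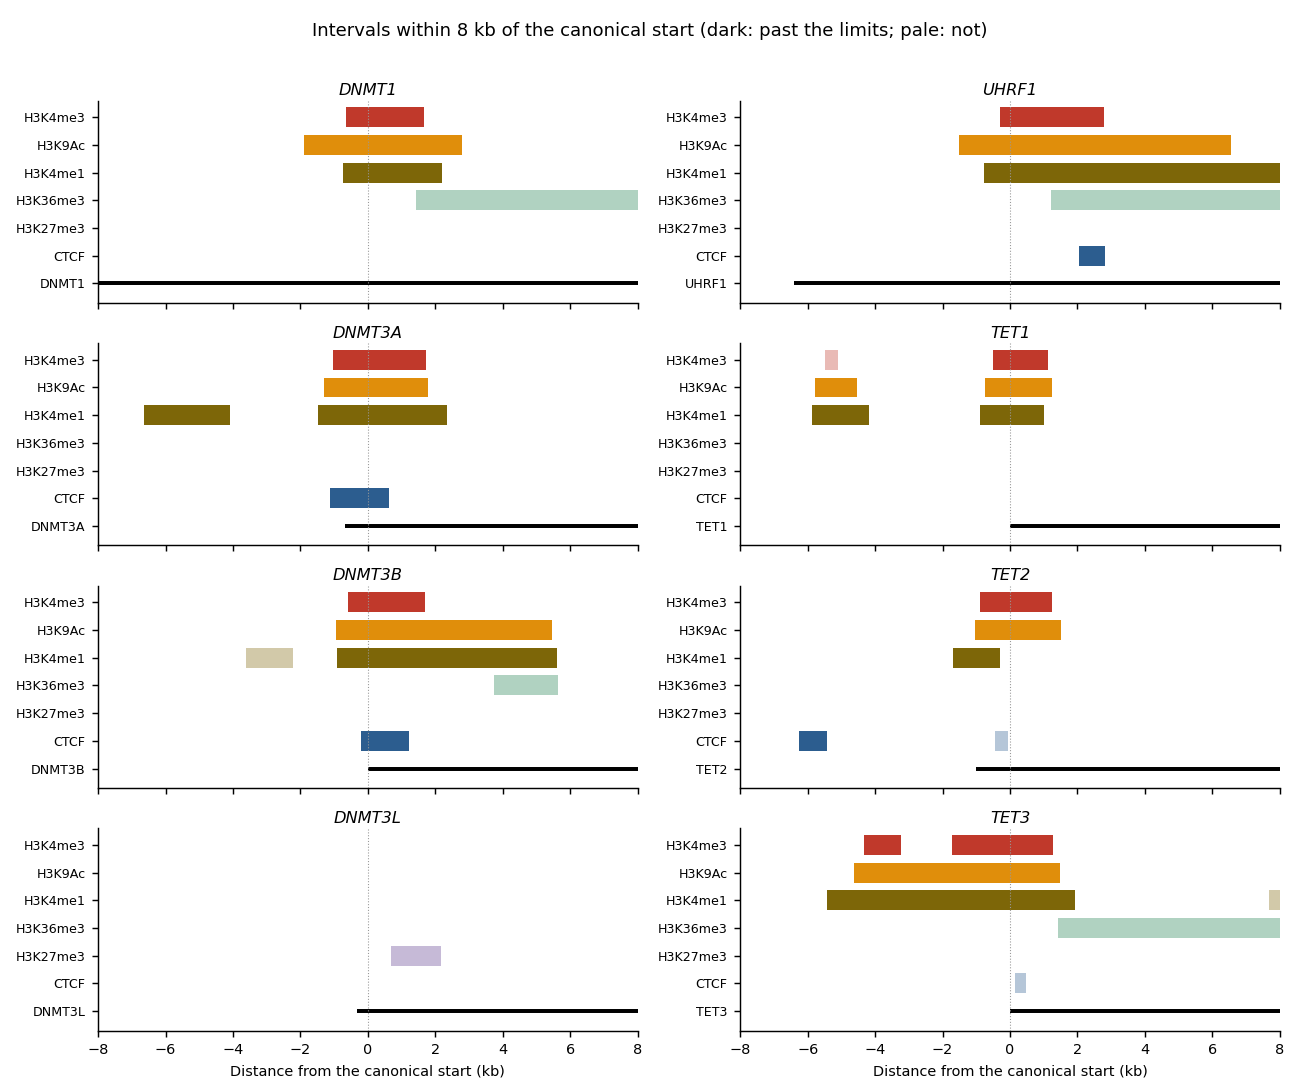
Intervals within 8 kb of the canonical start, with the distance in kb on the horizontal axis and 1 row per mark (dark past the limits, pale not). H3K9Ac and H3K4me1 run into the gene at DNMT3B and UHRF1 and upstream at TET3, are narrow at TET1 and TET2, and are missing at DNMT3L, which has a pale H3K27me3 bar.

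CpG content was read from hg19 in the 300 bases from 250 before to 50 after each canonical start, since CpG-rich promoters are the usual sites of H3K4me3. DNMT3A, TET3, UHRF1 and TET2 held 46, 45, 36 and 35 CpG, and DNMT1 and DNMT3B 30 each. The median over all 20162 coding promoters was 23. TET1 held 10 and DNMT3L 13. The ratio of observed to expected CpG was over 0.6 in 6 of the 8 genes, against 66.9% of all promoters. It was 0.463 for TET1 and 0.450 for DNMT3L, close to each other and below the median of 0.873 over promoters with H3K4me3, and above that of 0.336 over promoters without it. Of this pair, TET1 had H3K4me3 and DNMT3L did not. In the 1000 bases centred on the start the ratios were 0.666 for TET1 and 0.229 for DNMT3L.

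The sequences here show the TET1 side of this contrast and promoters that differ in H3K4me3. Each is 250 bases of hg19 directly upstream of a start, written 5′ to 3′ on the strand of the gene, with each CpG in capitals. No annotated exon of the gene overlaps these stretches. DNMT3A is shown at its marked canonical start (chr2:25564795-25565044, minus strand, 33 CpG) and at an unmarked internal start (chr2:25475181-25475430, minus strand, 24 CpG). TET3 is shown at an unmarked internal start (chr2:74229590-74229839, plus strand, 30 CpG). TET1 is shown at its marked canonical start (chr10:70319844-70320093, plus strand, 9 CpG). The same stretch before the canonical DNMT3L start held 11 CpG and is not shown, since it overlaps an exon of another DNMT3L transcript.
DNMT3A canonical: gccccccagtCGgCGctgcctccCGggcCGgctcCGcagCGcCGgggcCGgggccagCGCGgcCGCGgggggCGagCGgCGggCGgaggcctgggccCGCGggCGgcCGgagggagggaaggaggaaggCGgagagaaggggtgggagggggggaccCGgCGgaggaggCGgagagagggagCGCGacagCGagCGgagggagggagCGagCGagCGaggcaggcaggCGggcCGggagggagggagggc
DNMT3A internal: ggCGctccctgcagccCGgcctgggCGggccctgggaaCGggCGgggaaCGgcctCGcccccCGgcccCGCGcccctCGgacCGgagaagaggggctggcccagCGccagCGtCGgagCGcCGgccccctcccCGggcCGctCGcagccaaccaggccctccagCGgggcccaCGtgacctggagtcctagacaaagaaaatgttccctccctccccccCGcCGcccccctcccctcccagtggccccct
TET3 internal: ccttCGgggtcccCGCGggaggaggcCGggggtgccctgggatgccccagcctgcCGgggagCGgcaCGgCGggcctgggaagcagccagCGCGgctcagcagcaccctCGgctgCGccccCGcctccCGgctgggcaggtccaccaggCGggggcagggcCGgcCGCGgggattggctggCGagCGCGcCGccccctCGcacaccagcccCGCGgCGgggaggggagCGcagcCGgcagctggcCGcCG
TET1 canonical: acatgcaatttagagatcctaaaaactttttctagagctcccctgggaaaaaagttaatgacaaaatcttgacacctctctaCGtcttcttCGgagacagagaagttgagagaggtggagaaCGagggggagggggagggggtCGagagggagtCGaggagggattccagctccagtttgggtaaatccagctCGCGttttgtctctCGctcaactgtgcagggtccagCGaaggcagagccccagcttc

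Merging annotated starts of coding transcripts within 500 bp of each other left 20 starts for the 8 genes. Of these, 12 had H3K4me3 past the limits within 1 kb. Neighbouring marked starts of DNMT3A, of UHRF1 and of TET2 shared the same H3K4me3 interval. With merging at 1000 bp, 8 of 16 starts had the mark. The share over merged starts of all coding genes was not computed. Starts without H3K4me3 included CpG-rich ones. DNMT3A has an internal start 89614 bp into the gene, known to give a shorter isoform, whose 300 bases held 27 CpG with a ratio of 0.641. No interval of any of the 6 lists lay within 1 kb of it. TET3 has an internal start at 17803 bp with 34 CpG and a ratio of 0.709, where a single H3K36me3 interval of fold 2.88 crossed the start and no interval of the other marks lay within 1 kb. In these 300 bases the CpG ratio of both unmarked starts was above the 0.463 of the marked start of TET1. Over 1000 bases the TET1 ratio was 0.666, and that wider ratio was not computed for the internal starts. The other starts without H3K4me3 were poorer in CpG. Those of DNMT1 lay at 6244 bp upstream (2 CpG) and 14572 bp downstream (9 CpG, ratio 0.507). That of UHRF1 lay at 6421 bp upstream (4 CpG) and that of DNMT3B at 17467 bp (3 CpG). That of DNMT3A lay at 92222 bp downstream (8 CpG, ratio 0.474). The merged DNMT3L start was read from 319 bp upstream (2 CpG).

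TET1 had a second marked position inside the gene. RefSeq promoters placed on hg19 by exact sequence match put starts at 39931 and 40137 bp, within an H3K9Ac interval of fold 7.35 and an H3K4me1 interval of fold 6.35, both past the limits. H3K4me3 there had a fold of 4.51 and was not past the limits, so it was far below the 32.3 of the canonical start in the same list. The interval from 39656 to 40732 bp overlapped exon 3 of the canonical transcript.

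DNMT1 also has annotated starts far upstream, at 36333 bp before the canonical start. H3K4me3 there had a fold of 22.9, H3K9Ac 13.1 and H3K4me1 5.46. S1PR2, a sphingosine-1-phosphate receptor gene on the same strand, starts at 36378 bp upstream, within the same intervals, so the marks of the 2 genes cannot be told apart.

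**Figure D4:**
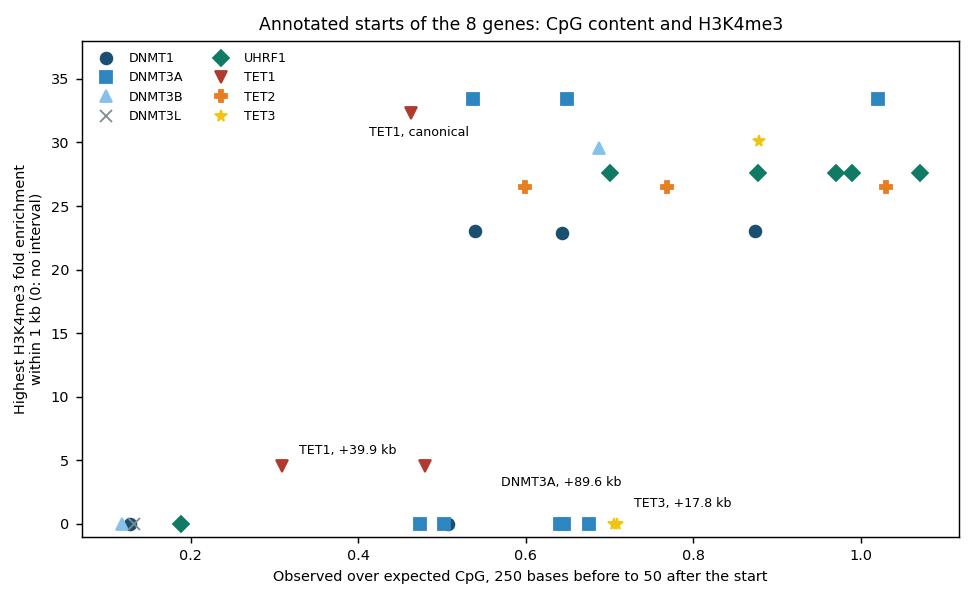
Annotated starts of the 8 genes in GENCODE and RefSeq, with the ratio of observed to expected CpG in 300 bases on the horizontal axis and the highest H3K4me3 fold (linear) within 1 kb on the vertical axis, set at 0 where the list has no interval. The canonical TET1 start lies at 0.463 with a fold of 32.3, whereas the internal starts of DNMT3A and TET3 lie at 0.641 and 0.709 with no interval.

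Short motifs were searched on both strands of the same 300 bases. The E2F-type letters TTTCGCG, E2F being the factor family of the cell cycle, were found in DNMT1 and UHRF1 and in none of the other 6 genes, against 1.74% of all promoters. The GC box GGGCGG was found in 6 of the 8 genes, against 60.9%, and CCAAT in DNMT3L and UHRF1, against 35.9%. The 2 matches of TTTCGCG shared no base with a match of the other motifs. They are given here in 29 bases of hg19 on the strand of the gene, with the motif, or its reverse complement, in capitals. In DNMT1 it lies across the start (chr19:10305613-10305641, minus strand), and in UHRF1 from 18 to 12 bases upstream (chr19:4909484-4909512, plus strand). A match of letters does not show that a factor is bound.
DNMT1: atcggtttccgCGCGAAAagccggggcgc
UHRF1: aaatgccgagtTTTCGCGggaaaaaaatc

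H3K36me3 over the gene bodies differed widely among the 8 genes. All 34 of its intervals in the windows had folds between 2.47 and 4.38 and none was past the limits, as in the whole list, where 90 of 40010 intervals were, so every deposited interval was used. At least 1 lay in the body of 7 of the 8 genes, against 56.3% of all coding genes, and 3 genes were covered over at least 50% of their body, against 25.4%. Past the limits the background was 0.496%.

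DNMT1 and UHRF1 were each covered by 1 unbroken H3K36me3 interval. That of DNMT1 was 69266 bp long with a fold of 4.38 and a −log10 q of 4.85, ranked 61 by width among all 40010, and ran from 1421 bp downstream of the start to 9075 bp past the end of the gene. That of UHRF1 was 55584 bp long with a fold of 4.12, ranked 153, and ended 4140 bp past the gene. These intervals covered 61.5% and 87.1% of the annotated bodies. Of the canonical transcripts, which leave out the far upstream starts, they covered 97.7% in both. In DNMT1 the interval began 258 bp before the end of the H3K4me3 interval and in UHRF1 1566 bp before it.

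DNMT3B was covered over 69.9% of its body, mostly by an interval of 31273 bp with a fold of 3.63 that began 17005 bp into the gene and held exons 2 to 23. The first intron before it held only 2 short H3K36me3 intervals of fold 2.66 and 2.92. DNMT3A, the paralog with the same enzymatic role, had 6 short intervals of fold 2.62 to 2.98 that covered 5.23% of its 115 kb. The first of them lay 32575 bp beyond the end of H3K4me3. The median was 4.83% over all coding genes and 44.5% over the 11346 with an H3K36me3 interval in the body. DNMT3A was near the first and far below the second, although its start had the highest H3K4me3 fold of the group.

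TET3 was covered over 37.8% by 10 intervals, starting 143 bp after the end of H3K4me3, the longest of 12638 bp over exons 7 to 10. TET2 and TET1 were covered over 10.4% and 6.60%, by 5 and 7 intervals. These began 43326 and 40578 bp beyond H3K4me3, and the longest of each lay toward the 3′ end, from 122137 bp in TET2 and from 122442 bp in TET1. Over the 7 genes with H3K4me3, H3K9Ac and H3K4me1 at the start, coverage ran from 87.1% to 5.23%. The lists give no depth, and how far low fold intervals such as these break up with depth was not tested.

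**Figure D5:**
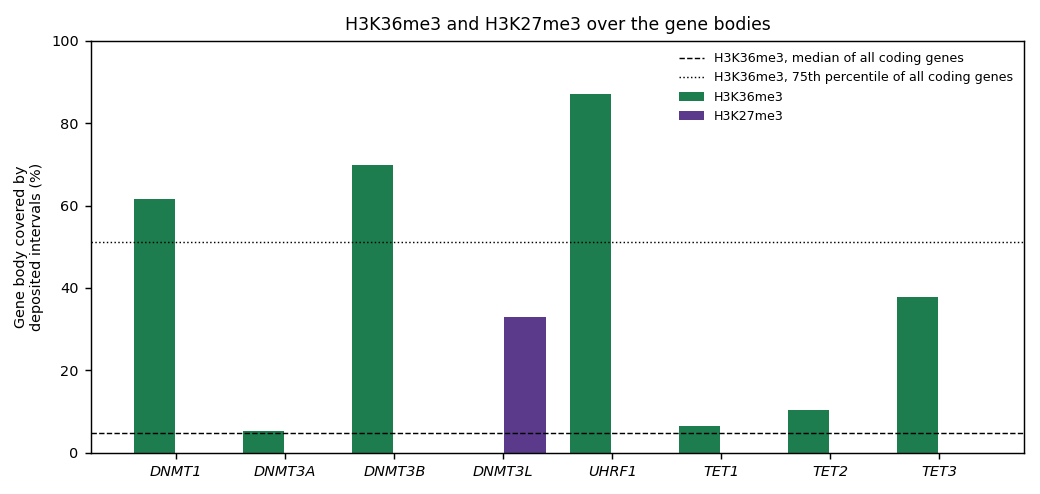
Percent of the annotated gene body (vertical axis) covered by deposited H3K36me3 (green) and H3K27me3 (purple) intervals, none of them past the limits. Lines give the H3K36me3 median (4.83%) and 75th percentile (51.1%) over all coding genes. UHRF1, DNMT3B and DNMT1 lie above the 75th percentile, and DNMT3L has H3K27me3 alone (32.9%).

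DNMT3L (chromosome 21, 45666222 to 45682099, minus strand) was the gene without H3K4me3, H3K9Ac or H3K4me1 within 1 kb of its start. No CTCF interval lay there either, as at DNMT1, UHRF1 and TET1, and no H3K36me3 interval lay in its body. It was the 1 gene of the 8 with H3K27me3 in the body, against 20.7% of all coding genes. Its 3 intervals, of fold 2.91, 2.65 and 2.86 from 5′ to 3′, covered 32.9% of 15.9 kb, at the 93.6 percentile. None was past the limits, against a background of 2.96%, and their −log10 q lay between 1.18 and 1.53, close to the cutoff of the list. The peak names of the H3K27me3 list carry another sample prefix than those of the other lists and do not name HCT116, so that its origin rests on its label. A further interval, of fold 3.37 and −log10 q 2.17, lay from 18599 to 19825 bp from the start, beyond the gene. It overlapped the H3K4me3, H3K9Ac and H3K4me1 intervals described next. Marks of active promoters in the window lay over the start of the next gene, ICOSLG, a costimulatory ligand gene that starts at 20954 bp. There H3K4me3 had a fold of 25.1, H3K9Ac 16.4 and H3K4me1 7.82. A noncoding RNA gene on the opposite strand, ENSG00000278158, starts at 20322 bp within the same intervals. The H3K4me1 interval also held the start of another, ENSG00000275799, at 17352 bp. The marks of these genes cannot be told apart.

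The flanks of UHRF1 and DNMT3B also reached neighbours. KDM4B, which encodes a histone demethylase, starts 59611 bp from the UHRF1 start, with H3K4me3 of fold 20.2, H3K9Ac of 6.24 and H3K4me1 of 6.32. ARRDC5 starts 6605 bp upstream of UHRF1, and no deposited interval lay at the unmarked UHRF1 start beside it. At the 3′ edge of the DNMT3B window H3K9Ac of fold 7.37 and H3K4me1 of fold 4.95 crossed the edge toward the start of a gene outside it.

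Of the 23 H3K4me1 intervals past the limits, 12 were within 1 kb of a GENCODE start of a coding transcript and 11 were not. The matching shares over the whole H3K4me1 list were not computed. The counts in this paragraph therefore describe the windows and do not set these genes apart from others. Of the 11, the one in TET1 from 38741 to 40883 bp held the RefSeq starts described above. The 11 lay in the windows of 4 genes, 5 at DNMT3A, 3 at TET1, 2 at DNMT1 and 1 at UHRF1. A deposited H3K9Ac interval overlapped 8 of the 11, and H3K9Ac past the limits overlapped 2, both at TET1, of which 1 was the interval with the RefSeq starts. In DNMT3A the highest fold was 6.13, in intron 3 at 45887 bp, with H3K9Ac of 5.74 that was not past the limits, and the others had folds from 3.59 to 5.33. Upstream of TET1, H3K4me1 of fold 5.55 and H3K9Ac of fold 6.48 lay together, from 5864 to 4185 bp and from 5783 to 4538 bp before the start. In TET1 intron 2, at 33256 bp, H3K4me1 had a fold of 6.18 and H3K9Ac of 2.82. DNMT1 had H3K4me1 of fold 4.41 over exon 8 and 4.35 at 12141 to 8901 bp upstream. TET2, TET3, DNMT3B and DNMT3L had none of this kind.

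CTCF intervals past the limits numbered 4 at DNMT3A, 3 at DNMT3B and 1 each at UHRF1, TET1 and TET2. The highest fold, 14.7, was in the first intron of DNMT3B from 15764 to 16585 bp, which ended 419 bp before the long H3K36me3 interval began. A further DNMT3B interval in intron 7 had a fold of 12 and lay inside that H3K36me3 interval. In DNMT3A they lay at the start (10.7), in intron 2 (7.78), in intron 4 (8.93) and over the last exon, 23 (6.82). Over that exon H3K4me3, H3K9Ac and H3K4me1 also had intervals, of fold 4.69, 3.31 and 3.44, none past the limits. TET2 had CTCF of fold 9.76 from 6249 to 5438 bp upstream, TET1 of 6.70 from 9642 to 9062 bp upstream, and UHRF1 of 7.86 in intron 2.

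The CTCF core, searched on both strands, matched exactly in 3 of these 10 intervals and with at most 1 mismatch in 7. Over all 24536 CTCF intervals past the limits the shares were 22.4% and 65.9%. The intervals at the starts of DNMT3A and DNMT3B held no match with at most 1 mismatch, nor did the one upstream of TET1. A match of letters within an interval does not show that CTCF is bound at it. The 3 exact matches are shown in 30 bases of hg19, with the core of 12 bases in capitals. They lie in DNMT3A exon 23 (chr2:25451833-25451862, minus strand), DNMT3A intron 4 (chr2:25500256-25500285, plus strand) and DNMT3B intron 1 (chr20:31366432-31366461, minus strand).
DNMT3A exon 23: tcacttcccCCACCAGAGGGCctgggactc
DNMT3A intron 4: cccgggctcCCAGCAGGGGGCgcctgctcg
DNMT3B intron 1: tggcatcgcCCACCAGGGGGCaccgtgagc

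Among 53 other genes of the pathway, 47 had H3K4me3 past the limits at the start, 48 H3K9Ac, 37 H3K4me1, 7 CTCF and 35 the first 3 together, to be read against the background shares given above. H3K36me3 lay in the body of 49 and over at least 50% of the body in 26, with a median coverage of 48.3%, compared with 24.1% for the 8 genes. These medians take no account of body length. It ran from 2.58 to 251 kb in the 53 genes and from 15.9 to 134 kb in the 8. H3K4me3 was found at 10 of 10 partners of maintenance methylation, 9 of 9 genes of base excision of oxidised cytosine, 9 of 9 genes of cofactor metabolism, 5 of 5 H3K36 methyltransferases and 8 of 9 readers of methylated CpG. The reader without it was ZBTB38, with a deposited H3K4me3 fold of 3.40 and H3K4me1 of 7.74. Of 7 regulators of CpG-rich DNA, CXXC4, whose protein binds TET2, had H3K4me3 of fold 5.94 that was not past the limits, together with H3K9Ac of 6.62 and no H3K36me3. The germline and early embryo partners DPPA3, ZFP57, PIWIL4 and CTCFL lacked H3K4me3, H3K9Ac and H3K4me1, as DNMT3L did. Deposited H3K27me3 and CTCF intervals lay within 1 kb of the CTCFL start, with no H3K27me3 in its body. H3K27me3 was deposited in the body of 7 of the 53 and past the limits in SMUG1, a uracil DNA glycosylase, over 3.64% of its body.

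Genes of the pathway with the same marks present as a member, ordered by the summed difference of log2 fold of H3K4me3, H3K9Ac and H3K4me1 at the start, were taken as most like it. Presence was judged on all deposited intervals, past the limits or not. For DNMT1 this was MBD4, a glycosylase that binds methylated CpG, with a difference of 0.13. For TET2 it was the ligase gene LIG3 (0.26), for UHRF1 the H3K36 methyltransferase gene NSD2 (0.46), and for TET1 EHMT2, an H3K9 methyltransferase gene (0.55). DNMT3A, DNMT3B and TET3 shared KDM2A, an H3K36 demethylase gene, at 0.48, 0.57 and 0.55. CTCF at the starts of KDM2A, LIG3, TET2 and TET3 was deposited but not past the limits, unlike that at DNMT3A and DNMT3B. The patterns of marks present are common, since 24.5% of coding genes had that of DNMT1, UHRF1 and TET1 and 19% that of the other marked members. None of the 53 pathway genes had the pattern of DNMT3L, H3K27me3 alone, which 11.2% of coding genes had. The likeness rests on 3 values per gene from 3 libraries.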

How the data were processed

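The data were 6 peak lists labelled as HCT116 chromatin, 1 per mark and library. According to the Methods, alignment used BWA 0.7.12 on hg19, and broad regions were called by MACS2 (cutoff 0.1). The submitters' notes list MACS 1.4.2, bcl2fastq 2.20.0.442 and SAMtools 0.1.19. The fold enrichment, a linear ratio, is as the authors deposited it. The −log10 p-value, the −log10 q-value and the score that the authors deposited were read, and the score was not used further. Read depth is unknown from the lists and limits which intervals are called and how wide they are. Peak names in the H3K27me3 list do not name HCT116, unlike those of the others, and carry another sample prefix. That the list is of HCT116 cells is taken from its label.

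Genes and exons were taken from GENCODE 44 on hg19. Distances run from the first base of the canonical transcript, counted as 0, in the direction of the gene. A percentile of fold or width is the place among coding starts with the mark past the limits, and one of coverage the place among all coding genes. RefSeq promoters of GRCh38.p14 were placed on hg19 by exact match, 18 of 18 for 7 genes. The genes named are the 8 members, genes starting in their windows, and pathway genes lacking H3K4me3, carrying H3K27me3 or most like a member. Genes and lists were chosen with earlier results of these data known. Overlaps were tested on simulated data and checked against bedtools 2.31.1. Python 3.11.15, numpy 2.4.6, pandas 2.3.3, pysam 0.24.0, matplotlib 3.10.9 and samtools 1.23.1 were used. Alternatives were other limits, windows, flanks and merging distances, and 1 mismatch in the core.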

Additional observations from a re-analysis of the deposited data

How the results depend on the processing

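Of 44 values recomputed for 12 results, 36 stayed within 1.5 times the main count and 8 moved. With only the intervals past the limits, the windows held 57 intervals in place of 127, or 51 with the fold limits multiplied by 1.5, and no gene kept H3K36me3 over at least 50% of its body (0 in place of 3) or H3K27me3 in its body (0 in place of 1). With all deposited intervals, CTCF lay at 4 starts in place of 2 and in 19 intervals in place of 10. Under the stricter limits set for other marks H3K4me1 remained at 3 starts in place of 7. With 1 mismatch allowed, 7 CTCF intervals held the core in place of 3. In each case the alternative itself removes or adds intervals or matches. The use of the span of the canonical transcript for H3K36me3 was chosen after seeing the data. No paired analysis was possible because there is 1 library per mark. The lists give no read counts. A mark that was not called at DNMT3L, or at the internal starts of DNMT3A and TET3, is therefore not shown to be absent.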
